A study of Mus musculus with 141 samples.

Results

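The genes Mest, Sfrp5, Bmp3, Npr3 and Nnat, whose transcripts are known to vary with the growth of fat mass, were followed across mouse subcutaneous fat. They were taken by name as 5 of the 36558 genes in the expression tables, and all 5 were present and passed the filter on low counts. RNA-seq of inguinal white adipose tissue (iWAT) covered 67 female and 74 male mice from 82 strains of the Hybrid Mouse Diversity Panel (HMDP), with 1 library per sex and strain and both sexes in 59 strains. The mice were inbred and recombinant inbred animals without a transgene or knockout named in the labels. However, 1 BXD line, BXD24/TyJ-Cep290<rd16>/J, is named for an allele of Cep290. The name of the classical strain BTBR T<+> tf/J likewise holds the allele symbols T<+> and tf. All mice received chow until 8 weeks of age and then an HF/HS diet, rich in fat and sucrose, for 8 weeks. They were fasted for 4 h before collection, and no lean or chow-fed group is included. By strain name, 40 strains were BXD lines (32 female and 34 male libraries), derived from C57BL/6J and DBA/2J, and 11 were AXB or BXA lines (9 and 11), derived from A/J and C57BL/6J. A further 24 were classical inbred strains (21 and 23), and 4 BXH and 3 CXB strains completed the panel.

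White fat grows when existing adipocytes enlarge and when progenitors form new ones, and several secreted and membrane proteins are known from rodents as markers of the enlarging state. Mest encodes an endoplasmic reticulum protein with an alpha/beta hydrolase fold, is expressed from the paternal allele only and is known to rise in fat of overfed mice before the pads expand. Sfrp5 is a secreted protein that binds Wnt ligands outside the cell. Bmp3 is a ligand of the TGF-beta superfamily that opposes other bone morphogenetic proteins (BMPs), Npr3 is the receptor that clears natriuretic peptides, and Nnat (neuronatin), also paternally expressed, encodes a small membrane protein of the endoplasmic reticulum.

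In the GENCODE M21 annotation of GRCm38, Mest (ENSMUSG00000051855) lies at chr6:30723547-30748465 on the plus strand with 11 annotated transcripts, and its 3′ end overlaps the minus-strand gene Copg2 by 912 bases. Nnat (ENSMUSG00000067786) lies at chr2:157560078-157562522 on the plus strand, and all of its 2445 bases are inside Blcap on the minus strand. Sfrp5 (ENSMUSG00000018822) lies at chr19:42197971-42202252 on the minus strand, Bmp3 (ENSMUSG00000029335) at chr5:98854415-98884396 on the plus strand, and Npr3 (ENSMUSG00000022206) at chr15:11839896-11907287 on the minus strand. These overlaps are of gene spans, whereas reads were assigned to transcripts, and whether the partners share transcript sequence was not examined. The libraries were stranded, but the strand setting of the quantification is not given in the sources used here.

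Start regions are shown for Mest, Sfrp5 and Nnat, the 3 genes with the largest difference between the sexes, to let their letters be set side by side. Each is a 300-base RefSeq window of GRCm38.p6 around the annotated start, read 5′ to 3′ on the gene's strand, with GC boxes (GGGCGG on either strand) in capitals. The windows are chr6:30737800-30738099 for Mest, chr19:42202203-42202502 for Sfrp5 and chr2:157559828-157560127 for Nnat.
Mest: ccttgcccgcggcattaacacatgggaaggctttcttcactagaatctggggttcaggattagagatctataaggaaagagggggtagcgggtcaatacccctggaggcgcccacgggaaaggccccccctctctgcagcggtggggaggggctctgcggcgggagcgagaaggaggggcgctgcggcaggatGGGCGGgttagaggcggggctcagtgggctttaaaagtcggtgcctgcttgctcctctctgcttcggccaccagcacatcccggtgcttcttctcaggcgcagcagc
Sfrp5: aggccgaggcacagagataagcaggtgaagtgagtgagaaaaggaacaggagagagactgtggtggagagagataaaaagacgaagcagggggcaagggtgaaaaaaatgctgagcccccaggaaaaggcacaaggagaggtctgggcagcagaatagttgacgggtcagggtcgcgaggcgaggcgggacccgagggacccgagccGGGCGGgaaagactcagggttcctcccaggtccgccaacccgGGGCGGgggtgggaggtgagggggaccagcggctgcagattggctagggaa
Nnat: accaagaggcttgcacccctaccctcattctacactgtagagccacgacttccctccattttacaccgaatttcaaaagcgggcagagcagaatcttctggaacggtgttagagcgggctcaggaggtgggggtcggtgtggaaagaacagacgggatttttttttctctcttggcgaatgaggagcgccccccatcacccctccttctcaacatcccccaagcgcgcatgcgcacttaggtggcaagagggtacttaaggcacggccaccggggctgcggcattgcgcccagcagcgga
The Mest window holds 1 GC box, the Sfrp5 window 2 and the Nnat window 0, where 35.7% of 32851 promoter windows of the same length hold at least 1. All 3 are rich in CpG dinucleotides, with 17 in Mest, 15 in Sfrp5 and 17 in Nnat against a median of 7.0 over all windows. On either strand, none of the 3 holds TATAAA (13.6% of all windows), TTGCNNAA (10.8%) or CACGTG (7.15%), and 1 CCAAT, read on the opposite strand, is found in Sfrp5 (37.4%). The matches did not overlap each other. These are matches of letters and say nothing of whether a factor binds there. Mest has 2 further windows in the RefSeq table, at chr6:30737803-30738102, which shares nearly all of its letters with the one shown, and at chr6:30733256-30733555.

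Female libraries held between 6269154 and 39543043 estimated counts, with a median of 29991452, and male libraries between 11747373 and 78562648, with a median of 30770099. Levels are given as CPM, the counts per library total after TMM scaling, and 3 counts at the median depth correspond to 0.0992 CPM, far below most values of the 5 genes. The adipocyte markers Adipoq, Plin1, Plin4, Cidec and Fabp4 summed to between 3358 and 34986 CPM in females and between 7632 and 42693 CPM in males, and were thus present in every library. In 3 libraries the level of Y-linked genes went against the label. Together, Uty, Kdm5d, Eif2s3y and Ddx3y summed to 1425 CPM in the library labelled female BXD34/TyJ, 368 CPM in that labelled female BXD69/RwwJ and 8.16 CPM in that labelled male NZW/LacJ, where the other 65 females reached at most 34.1 CPM and the other 73 males at least 184.8 CPM. Only NZW/LacJ among these 3 has both sexes, and results that rest on it are given with and without it.

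Per unit of transcript length, Nnat was the most abundant of the 5 genes and Bmp3 the least. In TPM, which corrects for transcript length, the medians in females were 724 for Nnat, 215 for Npr3, 155.5 for Mest, 36.2 for Sfrp5 and 21.97 for Bmp3, and in males they were 1313, 410, 417, 110.5 and 24.98 in the same order of genes. Nnat exceeded Npr3 in 65 of 67 female and 72 of 74 male libraries, and Mest exceeded Sfrp5 in 65 and 70. Mest and Npr3 could not be ordered, since Mest was above Npr3 in 24 of 67 female and in 37 of 74 male libraries. Sfrp5 was above Bmp3 in 44 of 67 females and in 70 of 74 males.

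The spread between mice was wide, and widest for Mest and Sfrp5. In females, Mest ranged from 2.69 CPM (SJL/J) over a median of 245 to 2142 CPM (BXD60/RwwJ), a 796-fold range. In males, it ranged from 9.88 CPM (the library labelled male NZW/LacJ) over a median of 670 to 2867 CPM (BXD60/RwwJ), and from 17.04 CPM (CXB11/HiAJ) without that library. Thus BXD60/RwwJ had the highest Mest level in both sexes. Sfrp5 ranged from 0.933 CPM (SJL/J, 26 estimated counts) over 48.9 to 405 CPM (NZW/LacJ) in females, and from 3.45 CPM (SJL/J) over 158.8 to 612 CPM (A/J) in males. The SD of log2 CPM was 2.34 in females and 1.79 in males for Mest and 2.27 and 1.47 for Sfrp5, where the median over all genes was 0.505 and 0.417. Only 1.56% of genes in females and 3.81% in males had a larger SD than Mest.

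Bmp3 spread less, with an SD of log2 CPM of 1.09 in females and 0.78 in males. It ranged from 11.8 CPM (SJL/J) over 97.3 to 249 CPM (BXD44/RwwJ) in females and from 16.4 CPM (SJL/J) over 108.5 to 312 CPM (MA/MyJ) in males. Npr3 ranged from 38.8 CPM (BXD38/TyJ) over 928 to 2476 CPM (the library labelled female BXD69/RwwJ, or 2356 CPM in BXD21/TyJ without it) in females and from 182 CPM (SJL/J) over 1717 to 2702 CPM (BXD19/TyJ) in males. Nnat ranged from 6.81 CPM (SJL/J) over 583 to 1984 CPM (129X1/SvJ) in females and from 185 CPM (CXB11/HiAJ) over 1167 to 2387 CPM (BXD12/TyJ) in males. For all 5 genes the middle of the male distribution lay above that of the female one, while the 2 sexes overlapped.

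**Figure D1:**
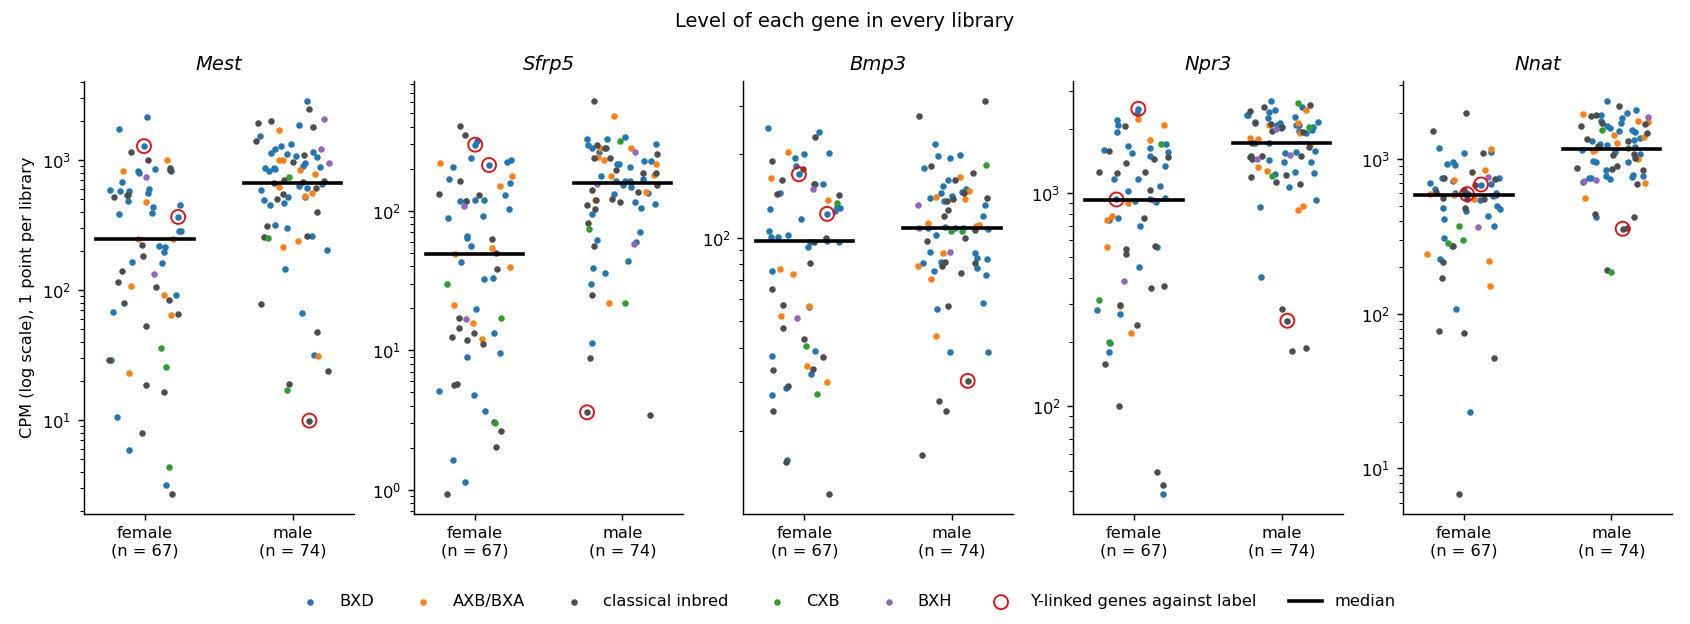
CPM (log axis) of each gene in every library, 1 point per library, by sex and coloured by strain family, with the median as a bar and red circles on the 3 libraries whose Y-linked genes go against the label. The female points reach lower than the male points for every gene, and the medians of Mest are 245 CPM in females and 670 CPM in males.

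To compare the sexes on the same genetic backgrounds, the female and male library of each of the 59 matched strains were paired in an edgeR quasi-likelihood model with strain and sex. All 5 genes were lower in females, most of all Sfrp5 and Mest. Over all genes, 29.8% of 16765 were lower in females at an adjusted p under 0.05 and 58.1% differed in either direction, so that a call by itself is common in these data. The size is not, except for Bmp3. Only 0.119% of genes had a lower log2 fold change (log2FC, female minus male) than Sfrp5. This share was 0.215% for Mest, 0.316% for Nnat and 0.573% for Npr3, but 8.57% for Bmp3. The median log2FC over all genes was 0.01.

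Sfrp5 averaged 76.4 ± 95.02 CPM (SD, n = 59) in females and 159 ± 108.4 CPM in males. Its log2FC was -1.86 (SE 0.32, adjusted p = 1.17e-06, edgeR), which is 3.63-fold higher in males, and it was lower in the female in 49 of 59 strains. Mest averaged 368 ± 435 CPM in females and 699.8 ± 546 CPM in males, with a log2FC of -1.49 (SE 0.33, adjusted p = 8.19e-05) and a lower female value in 47 of 59 strains. The model's fold, 3.63 for Sfrp5 and 2.82 for Mest, is wider than the ratio of the means for both genes. Single females reached up to 2142 CPM of Mest.

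Nnat was the gene with the most strains in 1 direction. It averaged 547 ± 348 CPM in females and 1230 ± 517 CPM in males, with a log2FC of -1.36 (SE 0.18, adjusted p = 4.09e-09), and was lower in the female in 51 of 59 strains. Npr3 averaged 917 ± 634 CPM in females and 1620 ± 592 CPM in males, with a log2FC of -1.11 (SE 0.18, adjusted p = 5.47e-07) and a lower female value in 48 strains. Bmp3 stood close to the threshold, with a mean of 95.98 ± 64.2 CPM for females and 113.2 ± 55.7 CPM for males, with a log2FC of -0.38 (SE 0.17, adjusted p = 0.0453). It was lower in the female in 32 of 59 strains and higher in 27. Without the strain term (no pairing) its log2FC was -0.23 with an adjusted p of 0.260, and when counts were scaled by library totals it was -0.27 with an adjusted p of 0.143. The other 4 genes kept their calls at both settings, although the log2FC of Mest was -0.92 and that of Sfrp5 -1.05 without the strain term.

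All 5 genes were lower in the female in 32 of 59 strains, and in 1 strain, NZW/LacJ, all 5 were higher. In that strain the library labelled male has Y-linked expression in the female range, and it had 3.59 CPM of Sfrp5 and 9.88 CPM of Mest against 405 and 866 CPM in the female library. Without NZW/LacJ, all 5 genes stayed lower in females, with a log2FC of -1.93 for Sfrp5, -1.56 for Mest, -1.40 for Nnat, -1.16 for Npr3 and -0.42 for Bmp3 (adjusted p = 0.0174). The widest differences in the other direction were in BXD38/TyJ, where Mest was 3.18 CPM in the female and 832 CPM in the male, and in MA/MyJ, where Bmp3 was 15.5 CPM in the female and 312 CPM in the male.

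**Figure D2:**
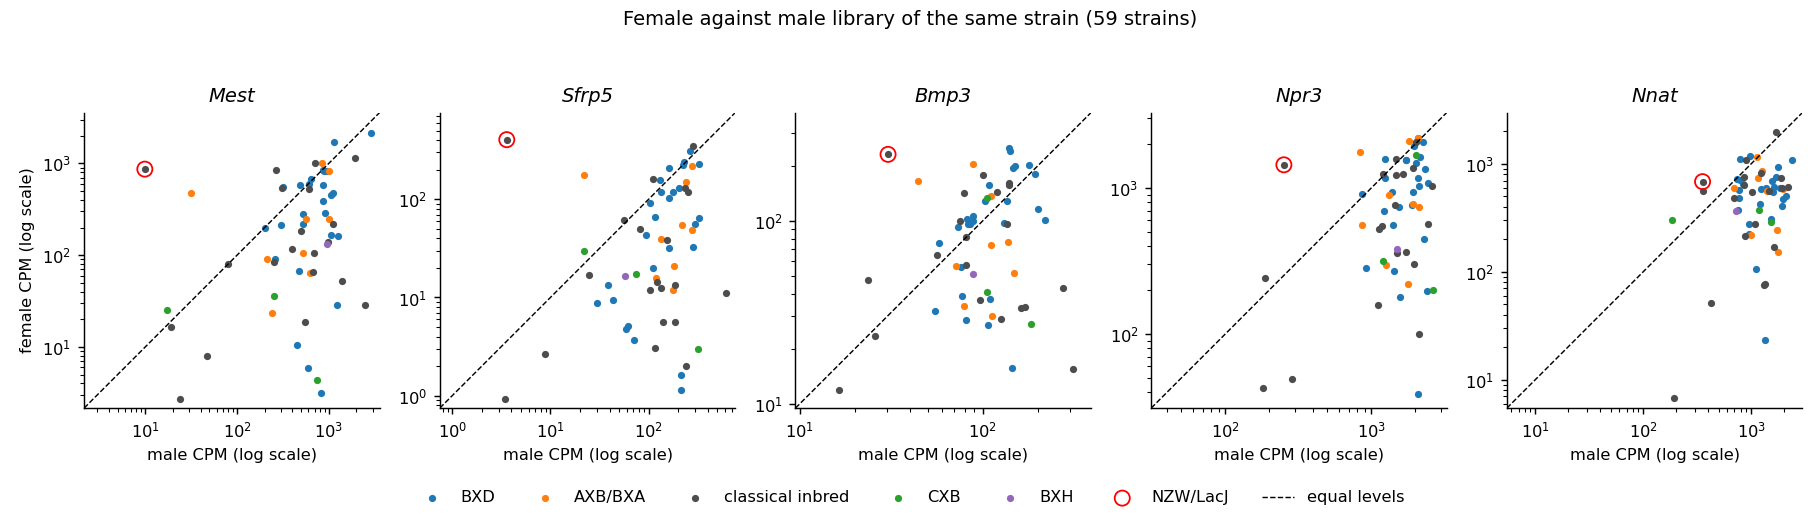
Female against male CPM (log axes) of each gene in the 59 strains with both sexes, 1 point per strain, with the dashed line at equal levels and NZW/LacJ circled. Most points lie under the line, 51 of 59 for Nnat and 32 of 59 for Bmp3.

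A difference in the size of the sex effect between the BXD lines and the other strains was not detected. In the 26 BXD strains the mean difference within strains (log2 CPM, female minus male) was -1.65 ± 2.31 (SD) for Mest and -1.83 ± 2.07 for Sfrp5, and in the other 33 strains it was -1.56 ± 2.68 and -2.003 ± 2.71. For Bmp3 it was -0.29 ± 0.96 and -0.53 ± 1.47, for Npr3 -1.15 ± 1.37 and -1.18 ± 1.43, and for Nnat -1.40 ± 1.26 and -1.44 ± 1.48. None of the 5 contrasts between the 2 sets of strains passed a two-sided permutation test (p from 0.490 to 0.922, adjusted p = 0.922 for each). The other strains include NZW/LacJ, where the difference was 6.44 for Mest and 6.79 for Sfrp5 and the library labelled male goes against its label. Without NZW/LacJ the contrast of Mest, -0.095 with it, changed sign and again did not pass.

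Markers of cell types also differed between the sexes in these libraries. All 5 adipocyte markers were lower in females, Plin4 with a log2FC of -0.95 and Cidec of -0.72, as were all 5 macrophage markers, led by Trem2 at -1.38 and Cd68 at -0.83, and all 4 endothelial markers, led by Cdh5 at -0.58 and Tie1 at -0.52. All 9 markers of mammary epithelium, a tissue that grows into this pad in female mice, were higher in females, led by Krt5 at 8.14 and Krt14 at 8.03. Their summed level, by labelled sex, was 0.887 to 2197 CPM in females (median 487) and 0.287 to 483 CPM in males (median 2.55). These ranges include the 3 libraries whose Y-linked genes go against the label, and ranges without them are not given. Without NZW/LacJ, all 9 mammary markers were again higher in females, with a median log2FC of 7.01 against 6.90 with it. Of the progenitor markers 3 of 6 were higher in females, Lum by 0.55 and Dpp4 by 0.36, and the others did not pass. Of 4 lymphocyte, 3 skeletal muscle and 4 brown or beige adipocyte markers none passed, and of the Schwann cell markers Mbp (-0.26) was lower and Sox10 (3.07) higher. In bulk tissue, fewer cells of a type and less RNA per cell cannot be told apart, and the part of these cell types in the differences of the 5 genes was not tested.

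Among other genes of fat expansion and adipocyte size, 10 of 11 tested were lower in females and 1 was higher (median log2FC -0.65), where 29.8% of all genes were lower. Trp53inp2, a regulator of autophagy, had the lowest value at -1.39 ± 0.13 (SE, adjusted p = 7.36e-14), followed by Lep, the hormone leptin that adipocytes release as they fill, at -1.32 ± 0.24 (adjusted p = 4.28e-06). Npy1r, a receptor of neuropeptide Y, was higher at 0.22. With library totals the count was 8 lower and 1 higher, and without NZW/LacJ it was again 10 and 1. This list, like the others, was chosen with earlier results of these data known, so its counts are a description only.

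The pathways of the individual genes did not share 1 direction. Over all 16765 genes tested, 4759 were higher and 4988 lower in females. Of 36 other Wnt pathway genes, 18 were higher and 3 lower in females (median log2FC 0.45). The ligands Wnt5b and Wnt4 had the highest values, at 3.23 and 3.12, and the receptor Fzd4 (-0.75) and the extracellular inhibitor Dkk2 (-0.42) the lowest. Of 29 BMP pathway genes tested, 14 were lower and 7 higher (median -0.18), with the extracellular antagonists Nog (-1.16) and Chrd (-0.64) at the low end and the receptor Bmpr1b (2.32) and the ligand Bmp7 (1.19) at the high end. With library totals the BMP genes split into 9 lower and 9 higher. Of the 8 natriuretic peptide genes only 4 could be tested, of which the receptor Npr2 was lower (-0.29), the kinase Prkg1 (0.48) and the phosphodiesterase Pde5a (0.29) higher, and Npr1 did not pass. Thus Npr3, the clearance receptor, had the largest difference in size among the natriuretic peptide genes tested.

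Mest and Nnat are both imprinted, and of 16 other imprinted genes tested 6 were lower and 1 was higher in females (median log2FC -0.19). Among all genes tested, 29.8% were lower in females and 58.1% differed in either direction. Snrpn (-0.39) and Impact (-0.32) had the lowest values, and Zim1 was higher at 0.71. With library totals the split was 5 lower and 3 higher. The differences of the 7 called genes were smaller in size than those of Mest (-1.49) and Nnat (-1.36). Among the genes around Mest and Nnat, the differences were also smaller. Copg2, which overlaps Mest, was lower by a small amount (-0.11, adjusted p = 0.0370), Cep41 was lower (-0.64), Tsga13 was higher (0.30) and Klf14 did not pass (-0.52, adjusted p = 0.0558). Blcap, which contains Nnat, was lower at -0.40. Cpa4 did not pass the filter on counts. Copg2 averaged 59.7 ± 9.42 CPM in females and 65.9 ± 18.7 CPM in males and so spread far less than Mest.

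Strain was then tested over the same 59 strains, with the male and the female of a strain as its 2 samples. None of the 5 genes passed the strain F test, while 71.2% of the 16765 genes did. F was 1.56 for Sfrp5 (adjusted p = 0.0607, edgeR), 1.55 for Mest (0.0628), 1.40 for Npr3 (0.120), 1.32 for Bmp3 (0.166) and 1.08 for Nnat (0.390), against a median of 1.92 over all genes. Of all genes 74.4% had a larger F than Sfrp5 and 96.7% a larger F than Nnat. The call depends on the method and, for Mest and Sfrp5, on the strains included, NZW/LacJ or AXB19a/PgnJ with AXB19b/PgnJ. Without NZW/LacJ, Mest (F = 1.80, adjusted p = 0.0210) and Sfrp5 (F = 1.81, adjusted p = 0.0203) passed, beside 76.1% of all genes. With limma on log2(TPM + 1), all but Bmp3 passed, beside 66.5% of all genes.

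**Figure D3:**
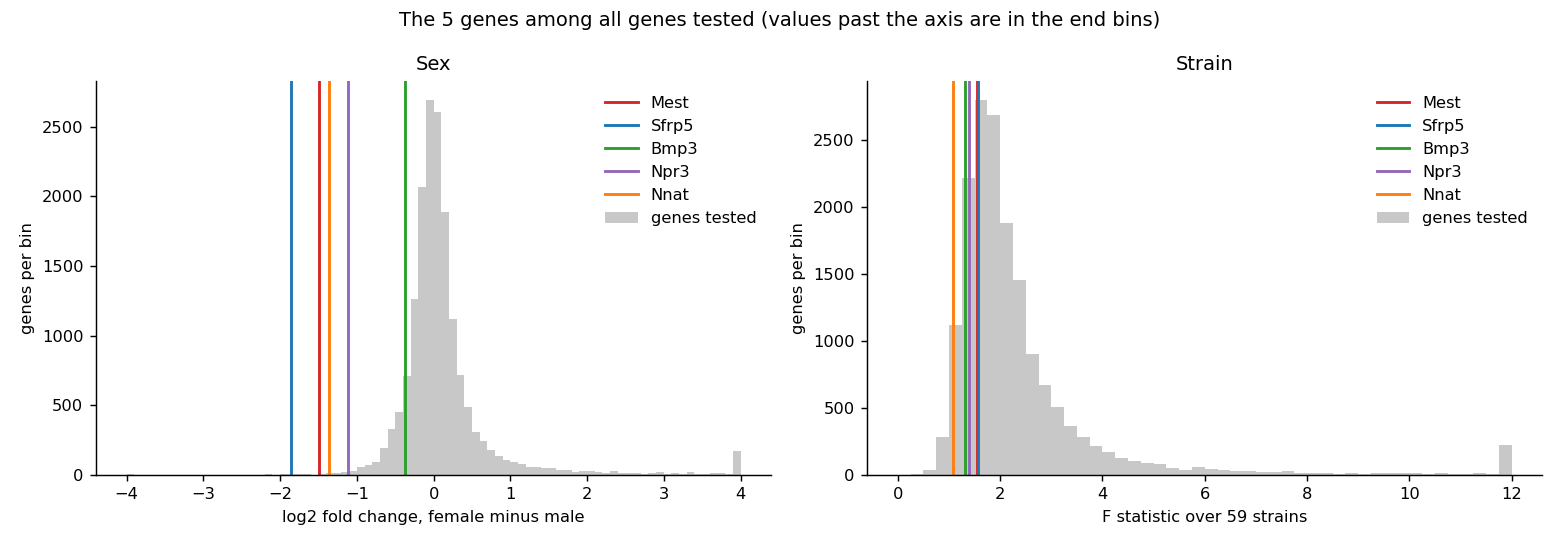
Numbers of tested genes by log2FC for sex (left) and by F statistic for strain (right), with the 5 genes as coloured lines. The 5 genes lie on the low side for sex, from -1.86 to -0.38, and below the median F of 1.92 for strain.

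The levels of a strain's female were only loosely related to those of its male. Over 59 strains, Mest gave Pearson's r = 0.30 (permutation p = 0.0198, adjusted over 5 genes 0.0349) and Spearman's rho = 0.31 (p = 0.0154, adjusted 0.0771), and r was 0.26 (permutation p = 0.0543) without the 2 strains farthest from the female median. Npr3 gave r = 0.35 (permutation p = 0.00652, adjusted 0.0326) but rho = 0.22 (p = 0.0920, adjusted 0.153), with r = 0.29 (p = 0.0316) without 2 strains. Nnat gave r = 0.31 (permutation p = 0.0210, adjusted 0.0349) and rho = 0.11 (p = 0.407, adjusted 0.407), with r = 0.13 (p = 0.337) without 2 strains, so that its r rests on those strains. Sfrp5 gave r = 0.22 (permutation p = 0.0882, adjusted 0.110) and rho = 0.28 (p = 0.0355, adjusted 0.0887), with r = 0.14 (p = 0.291) without 2 strains, and Bmp3 gave r = 0.15 (p = 0.266, adjusted 0.266) and rho = 0.14 (p = 0.284, adjusted 0.355), with r = 0.11 (p = 0.422). The median rho over 16756 genes was 0.30. Within the 26 BXD strains rho was 0.59 for Bmp3 (permutation test, adjusted p = 0.0101) and 0.50 for Sfrp5 (adjusted p = 0.0230), but 0.34 for Mest (adjusted p = 0.156).

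A few strains were low in both sexes. SJL/J and SWR/J had all 5 genes among the lowest 10% of libraries of their sex in both sexes, and Mest was 2.69 CPM in the SJL/J female and 24.0 CPM in the SJL/J male, and 16.3 and 18.9 CPM in SWR/J. The females of BXD38/TyJ and BXD75/RwwJ also had all 5 among the lowest 10%, while the male of BXD38/TyJ did not, with 215 CPM of Sfrp5 against 1.13 CPM in its female. Lep was low in these libraries as well, at 27.4 CPM in the SJL/J female, 36.1 in the SWR/J female, 18.4 in the BXD38/TyJ female and 127.5 in the BXD75/RwwJ female, where the median over females was 1035 CPM. At the other end, the BXD60/RwwJ female had the highest Mest level of all females (2142 CPM), with 157 CPM of Sfrp5 and 1623 CPM of Npr3, above the female upper quartiles of 129.6 and 1513 CPM, but 100.3 CPM of Bmp3, close to the female median.

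In the single mice of the 2 BXD parents, Mest lay in opposite orders between the sexes. C57BL/6J had 52.6 CPM of Mest in the female and 1396 CPM in the male, whereas DBA/2J had 998 and 703.5 CPM. Of the 32 BXD females, 4 were below and 3 above both parents for Mest, and of the 34 BXD males 16 were below both and 3 above. For Npr3, where the parents' females had 1031 and 1246 CPM, 16 of 32 BXD females were below both and 13 above. Since each parent is a single mouse of each sex, the order of the sexes and the counts carry the error of that mouse. Whether the order differs between these strains was not tested. The related lines AXB19/PgnJ, AXB19a/PgnJ and AXB19b/PgnJ had 106.5, 91.4 and 479 CPM of Mest in females and 528, 213 and 31.3 CPM in males.

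No difference between the 3 large strain families passed the tests made within each sex. In females, 12% of 18281 genes passed the family F test and in males 7.07% of 17631, but none of the 5 genes in either sex. In females the medians of Mest were 414 CPM in BXD, 245 CPM in AXB/BXA and 116.02 CPM in classical strains (F = 1.11, adjusted p = 0.542, edgeR), with ranges of 3.18 to 2142, 23.2 to 1007 and 2.69 to 1147 CPM. Sfrp5 had female medians of 89.7, 48.9 and 14.5 CPM in the same order (F = 0.414, adjusted p = 0.790). In males the medians of Mest were 845, 617 and 613 CPM (F = 0.168, adjusted p = 0.923) and those of Sfrp5 162, 216.5 and 135.03 CPM (F = 0.571, adjusted p = 0.772). For Bmp3, Npr3 and Nnat the adjusted p lay between 0.483 and 0.988. The ranges overlapped throughout.

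Across females, the 5 genes rose and fell together. Spearman's rho of log2 CPM over the 67 females was between 0.67 (Mest and Nnat) and 0.91 (Sfrp5 and Bmp3) for the 10 pairs, with a permutation p of 1e-05 for each, the smallest that 100000 resamples can give (adjusted over 20 tests 1.43e-05). Pearson's r was between 0.70 and 0.93 with the same p, and between 0.62 and 0.92 without the 2 libraries farthest from the median of the first gene. Within the 32 BXD females rho was between 0.55 and 0.89, and all 10 pairs passed.

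Across males, Npr3 was related to Mest, Sfrp5 and Bmp3, and Sfrp5 to Bmp3, while rho was lower for Mest with Sfrp5 or Bmp3 and lowest for Nnat. In the 74 males rho was 0.76 for Sfrp5 and Bmp3, 0.70 for Mest and Npr3, 0.69 for Bmp3 and Npr3 and 0.57 for Sfrp5 and Npr3 (permutation p = 1e-05 each, adjusted 1.43e-05), with r of 0.84, 0.77, 0.84 and 0.79 (p = 1e-05 each) and 0.80, 0.81, 0.78 and 0.68 without 2 libraries. Mest gave rho = 0.46 with Bmp3 (permutation p = 5e-05, adjusted 6.67e-05) and 0.37 with Sfrp5 (p = 0.00133, adjusted 0.00166), with r = 0.67 and 0.72 (p = 1e-05 each). Nnat gave rho = 0.29 with Bmp3 (permutation p = 0.0140, adjusted 0.0164), 0.27 with Sfrp5 (p = 0.0187, adjusted 0.0208) and 0.12 with Npr3 (p = 0.325, adjusted 0.342), and -0.0027 with Mest (p = 0.983, adjusted 0.983). For Mest and Nnat r was 0.38 (permutation p = 0.00135, adjusted 0.00142), but 0.20 (p = 0.0864) without 2 libraries, so that r rests on those libraries. For Npr3 and Nnat r was 0.36 (permutation p = 0.00286, adjusted 0.00286) and 0.23 (p = 0.0537) without 2 libraries. Within the 34 BXD males only the 4 pairs first named passed, with rho of 0.81, 0.67, 0.64 and 0.53, and Mest and Sfrp5 gave rho = 0.18 (permutation test, adjusted p = 0.348). Whether rho differed between the sexes was not tested.

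**Figure D4:**
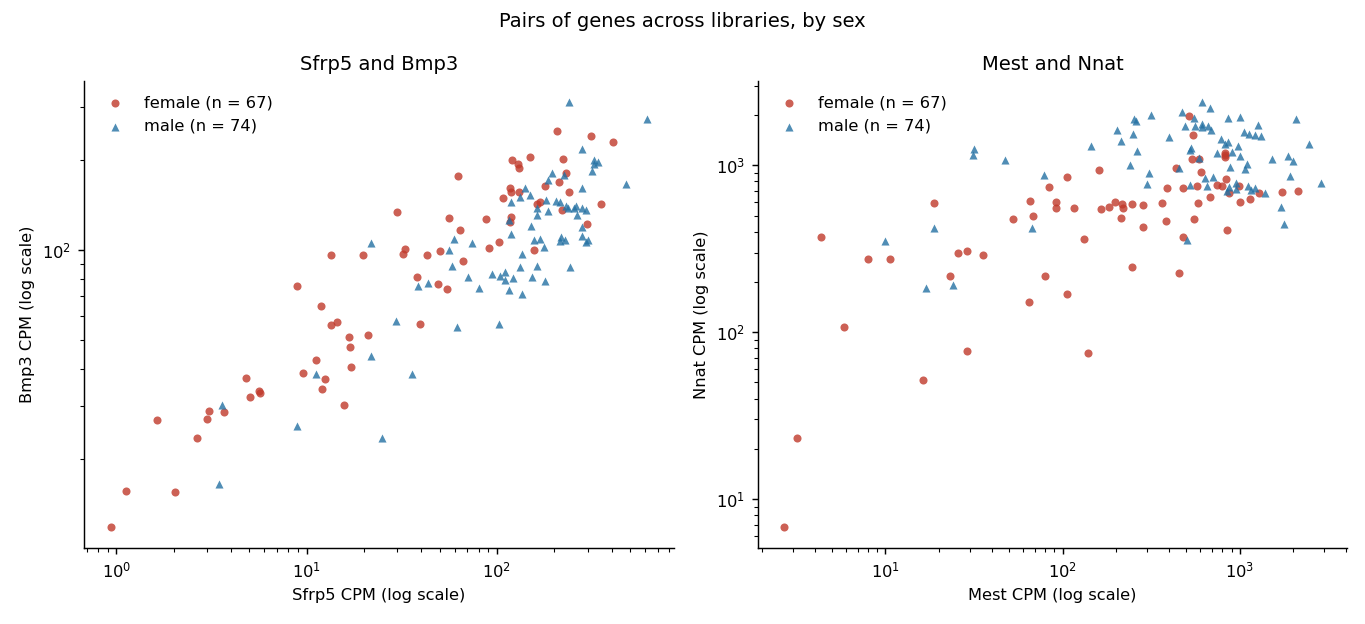
Bmp3 against Sfrp5 (left) and Nnat against Mest (right) in CPM on log axes, 1 point per library, with females as circles and males as triangles. Sfrp5 and Bmp3 rise together in both sexes (rho 0.91 and 0.76), while Mest and Nnat have a rho of 0.67 in females and -0.0027 in males.

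Leptin followed the 4 genes other than Nnat in both sexes. In females, rho with Lep was 0.93 for Npr3, 0.90 for Sfrp5, 0.87 for Bmp3, 0.82 for Mest and 0.68 for Nnat (permutation p = 1e-05 each, adjusted over 50 tests 3.12e-05), and r was 0.95, 0.91, 0.91, 0.85 and 0.77. In males, rho with Lep was 0.79 for Npr3, 0.65 for Mest, 0.59 for Sfrp5 and 0.54 for Bmp3 (permutation p = 1e-05 each), with r of 0.90, 0.77, 0.80 and 0.76, and -0.11 for Nnat (p = 0.365, adjusted 0.424), with r = 0.22 (p = 0.0626). Lep ranged from 18.4 to 5677 CPM in females and from 40.7 to 5459 CPM in males.

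Scores of cell types, the mean log2 CPM over a marker list, were related to the genes as well. In females, rho with the adipocyte score was between 0.62 (Mest) and 0.78 (Npr3), with r from 0.63 to 0.82 (permutation p = 1e-05 each). In males it was between 0.23 (Mest, permutation p = 0.0470, adjusted 0.0686) and 0.51 (Npr3), with r from 0.39 to 0.55 (permutation p from 1e-05 to 0.00084), but for Mest r was 0.19 (p = 0.112) without the 2 libraries farthest from the median score. The macrophage score gave rho of 0.51 with Mest in females (permutation p = 2e-05) and 0.48 in males (p = 3e-05), and -0.27 with Nnat in males (p = 0.0205, adjusted 0.0310; r = -0.21, p = 0.0777). It also passed in females with Sfrp5 (rho = 0.55), Npr3 (0.48) and Bmp3 (0.46), and in males with Npr3 (0.37) and Sfrp5 (0.29). With Nnat in females (0.22) and Bmp3 in males (0.17) it did not pass. The mammary score was negatively related to all 5 genes in females (rho from -0.49 for Npr3 to -0.32 for Mest, permutation p from 5e-05 to 0.00863; r from -0.38 to -0.27). In males it was so for Mest (rho = -0.41, permutation p = 0.00035, adjusted 0.0007; r = -0.42, p = 0.0006) and Npr3 (rho = -0.39, p = 0.00076, adjusted 0.00146; r = -0.42, p = 0.00125), while Sfrp5 (0.01), Bmp3 (-0.10) and Nnat (0.12) did not pass. For Mest and Npr3 r was -0.31 each without the 2 libraries farthest from the median score (permutation p = 0.0082 and 0.0077). The mammary markers were low in males, with a median sum of 2.55 CPM. No gene passed with the progenitor score in either sex. After removal of a linear fit on the adipocyte score, the 10 pairs of genes in females still gave rho from 0.29 (Mest and Nnat) to 0.86 (Sfrp5 and Bmp3), all passing. In males, the residuals gave 0.45 for Mest and Sfrp5 and 0.74 for Sfrp5 and Bmp3, but 0.05 for Sfrp5 and Nnat (permutation test, adjusted p = 0.681).

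**Figure D5:**
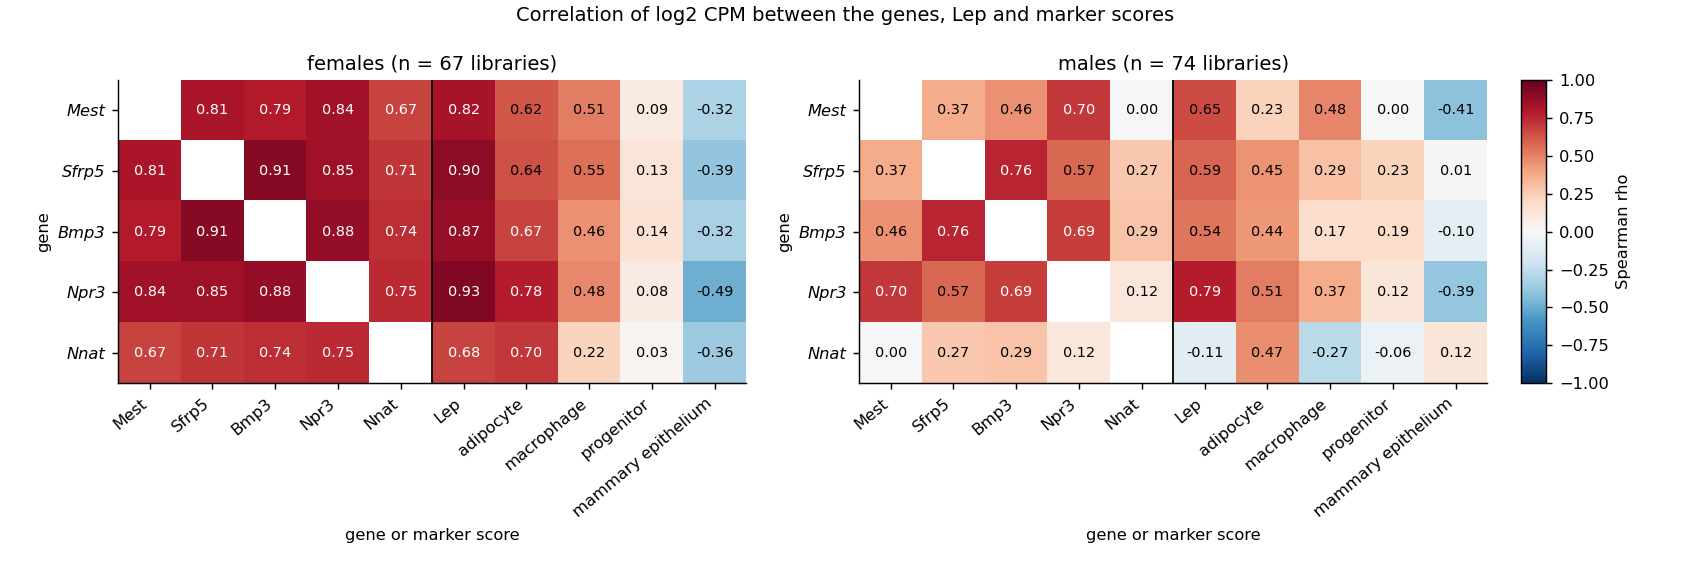
Spearman's rho of log2 CPM between the 5 genes and with Lep and 4 marker scores, in females (left) and males (right), with colour from -1 to 1. Between genes the female values run from 0.67 to 0.91, and in the male panel the row of Nnat stays at or below 0.29 with the other genes.

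Other genes with a similar pattern were ranked by likeness, the smaller of the Spearman rho in females and in males, over 16726 genes. Sfrp5 and Bmp3 were each other's nearest gene of all (likeness 0.76). Next to Sfrp5 were Prkag3 (0.76), Cyp4v3 (0.73) and Abat (0.72), and next to Bmp3 were Nexn (0.76), Zc2hc1a (0.76) and Msrb3 (0.75). Among the nearest to Mest were Gm4912 (0.80) and Ptchd4 (0.79), both of them low, with male medians of 1.27 and 2.94 CPM, and Npr3 was the gene at rank 35 (0.70). Nearest to Npr3 were 0610010F05Rik (0.89), Cav2, a component of caveolae (0.88), and Lpgat1 (0.88), while Mest stood at rank 416. Nnat had the loosest neighbours, 4931428L18Rik (0.65), Blcap (0.65) and Ebf1 (0.65), and Bmp3 was its nearest of the set at rank 1380. The gene spans of Blcap and Nnat overlap, and whether reads were shared between them was not tested. Without the 3 libraries whose Y-linked genes go against the label, a choice made after seeing the data, 13 of the 15 genes ranked in the first 3 were there again.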

How the data were processed

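The members and gene lists were chosen with earlier results of these data known. From stranded libraries with paired reads, the authors estimated transcript abundance by kallisto (0.46.1 in the submitters' processing notes) on GRCm38 and deposited gene-level estimated counts and TPM, which the authors scaled for transcript length and depth. 30.3% of the deposited estimated counts were not whole, and they were rounded. Of 36558 genes, 35856 had a symbol through GENCODE M21. Libraries were grouped by the labelled sex and strain. The floor in CPM covers counting error only, whereas SDs are over libraries or strains and SEs are from the edgeR model.

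Genes passing edgeR's filterByExpr were scaled by TMM and tested with edgeR 4.0.16 (quasi-likelihood, R 4.3.3) for strain and sex in 59 strains, and for family within each sex. Benjamini-Hochberg adjustment covered all genes tested, with a threshold of 0.05. SE was derived from log2FC and F. The strain term pairs the labelled female and male of a strain. Deviations from the sex mean correlated at 0.407 on average within strains and at -0.00714 between strains, and 45 of 59 strains were above 0.1. Correlations used log2 CPM (prior count 2) and two-sided permutation tests with 100000 resamples. The steps were tested on simulated data. Alternatives used DESeq2 1.42.0 and limma 3.58.1.

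Besides the 5 genes, the text names up to 2 called genes per list and direction with the largest log2FC, the 3 genes most alike to each member, the neighbours of Mest and Nnat, Y-linked genes for the label check, and Npr1, which was named after its values were seen as the only tested natriuretic peptide gene that did not pass. Promoter windows are from RefSeq, and 4 of 5 genes matched. Bmp3 was not among them. Some genes that the rule names are not reported here.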

Additional observations from a re-analysis of the deposited data

How the results depend on the processing

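The direction of the sex difference and, except for Bmp3, its call held for all 5 genes under DESeq2, limma-voom, RLE size factors, library totals, no filter, limma on log2(TPM + 1) and log2(TPM + 0.1), no pairing of the strains, and without NZW/LacJ. Bmp3 lost its call with library totals (-0.267), no filter (-0.396), log2(TPM + 1) (-0.311), log2(TPM + 0.1) (-0.34), no replicate block (-0.227) and no replicate block over all libraries (-0.183), and the cause was not tested. The strain block raised the calls over all genes from 8190 to 9747. Fits with limma-voom that dropped 1 of 59 strains at a time gave log2FC from -2.09 to -1.72 for Mest, -2.09 to -1.84 for Sfrp5, -0.534 to -0.404 for Bmp3, -1.43 to -1.24 for Npr3 and -1.67 to -1.49 for Nnat, with 9446 to 10223 genes called. Library totals moved the median log2FC of all genes by 0.109 and the share of calls higher in females from 48.8% to 72.8%. Relative to that median, Bmp3 was at -0.39 with TMM and with library totals. The strain test passed with log2(TPM + 1) for Mest (F = 1.92), Sfrp5 (1.63), Npr3 (1.94) and Nnat (1.98), without NZW/LacJ for Mest (1.8) and Sfrp5 (1.81), without AXB19a/PgnJ and AXB19b/PgnJ for Mest (1.65) and Sfrp5 (1.69), and with limma-voom for Npr3 (2.02). Between the sexes of a strain, rho passed without NZW/LacJ for Mest (0.369) and Sfrp5 (0.339) and within BXD for Sfrp5 (0.504) and Bmp3 (0.586). In BXD males, rho no longer passed for Mest with Sfrp5 (0.181), Mest with Bmp3 (0.341), Sfrp5 with Nnat (0.177) and Bmp3 with Nnat (0.255), and on residuals for Sfrp5 with Nnat (0.0489) and Bmp3 with Nnat (0.119). Values that did not pass changed sign for Mest and Nnat in males with log2(TPM + 1) (0.0745), for Npr3 and Nnat on residuals (-0.0658), and for BXD against other strains for Mest without NZW/LacJ (0.155) and for Npr3 (-0.11) and Nnat (-0.102) with log2(TPM + 1). Without the 3 libraries that go against their labels, no call of the 50 marker correlations (an alternative chosen after seeing the data) or of the 20 pairs changed, and no family test passed under any alternative.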
